A study of Mus musculus with 6 samples.

Results

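The genes described here are 48 members of the type I interferon response, a programme that cells switch on when they detect interferon alpha or beta. They were taken by gene symbol from the expression table, in which 48 of 55951 genes carry these names and each name has 1 row. RNA was sequenced from splenic effector-memory CD8+ T cells of mice with OVA-induced (ovalbumin) asthma, after cell sorting. All mice were on the C57BL/6 strain background with the genotype S100A4-EGFP, in which EGFP fluorescence stands for expression of S100A4, a small calcium-binding protein, and the sorted cells were otherwise untreated. One population was CD3+ CD8+ CD4- CD44+ CD62L- EGFP+ (S100A4-positive), and its counterpart was CD3+ CD8+ CD4- CD44+ CD62L- EGFP- (S100A4-negative), with 3 libraries each. The labels give neither the age of the mice nor whether the 3 samples of a population came from separate animals, so p-values measure only the spread between these samples. The 6 libraries held 14925260 to 18660188 reads, as recovered from the deposited values.

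The markers of the sort did not all go with the label. The 14 T cell markers tested were lower in every case in the S100A4-positive libraries, with a summed level of 431.9 to 622.9 FPKM, against 2762 to 3319 FPKM in the S100A4-negative libraries (FPKM is a fragment count scaled to transcript length and library size). Of 21 tested monocyte and macrophage markers 20 were higher, and their summed level was 7097 to 8154 FPKM in the S100A4-positive libraries, against 677 to 895 FPKM in the S100A4-negative libraries. The shares over all tested genes were 19.0% higher and 43.4% lower, by the test described below. No gene of either marker list was listed at 0 in all libraries. Csf1r, which encodes the M-CSF receptor of macrophages, had 1271, 965 and 884 FPKM in S100A4-positive libraries, against 15.1, 33.8 and 19.0 FPKM in S100A4-negative libraries. The part of these markers in the interferon results was not tested. In bulk RNA, fewer cells of a type and less RNA per cell cannot be told apart.

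In the type I interferon pathway, nucleic acid sensors such as Toll-like receptors, RIG-I and MDA5 switch on the interferon genes, and the secreted interferon acts through the receptor IFNAR1/IFNAR2 and the kinases JAK1 and TYK2. These activate ISGF3, a transcription factor complex that contains STAT2 and IRF9 and binds the interferon-stimulated response element (ISRE) of its target genes. The induced proteins restrict viruses and other intracellular pathogens. Interferon gamma uses another receptor and a related DNA element, the gamma-activated site (GAS), and it induces many of the same genes, among them the guanylate-binding proteins and immunity-related GTPases. In macrophages the programme also runs at a low tonic level and responds to microbial products, and in memory CD8+ T cells it responds to interferon from other cells.

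The promoters of the family show how its members differ at the element itself. Promoter windows of 300 bases, from 250 before to 50 after the transcription start, were found in the RefSeq table (GRCm38.p6) for 37 of the 48 genes, 46 windows in all. The ISRE core was searched on both strands as GAAA and GAAA separated by any 2 bases, and the GAS as TTCNNNGAA, which reads the same on both strands. The ISRE core was in 20 of 46 windows of these genes (43.5%), against 3.44% of 32851 windows of all genes. The GAS motif was in 13 of 46 windows (28.3%), against 8.3% of all windows. In 1 window, that of Bst2, matches to the 2 motifs overlapped. Counted by gene, the ISRE core was in 6 of 13 genes that were higher in S100A4-positive cells, 4 of 5 that were lower and 9 of 17 that were not called. A match is a description of the letters and not evidence of a bound site.

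The windows printed here are those of 3 genes that were higher (Rsad2, Oas1a and Oasl1), 2 that were lower (Gbp7 and Igtp) and 2 that varied most between replicates without being called (Isg15 and Ifit1), chosen after their values were seen. They show the ISRE core in genes of every kind of result, and its lack in this window of Oasl1, the gene of the family with the largest change. Each runs 5′ to 3′ on the strand of the gene, and capitals mark the ISRE core on either strand. Rsad2 has the core 120 bases before the start, Oas1a has 2 overlapping cores, Isg15 has 3 overlapping cores in one block, and Ifit1 has 2 separate cores.
Rsad2 (chr12:26456403-26456702, minus strand): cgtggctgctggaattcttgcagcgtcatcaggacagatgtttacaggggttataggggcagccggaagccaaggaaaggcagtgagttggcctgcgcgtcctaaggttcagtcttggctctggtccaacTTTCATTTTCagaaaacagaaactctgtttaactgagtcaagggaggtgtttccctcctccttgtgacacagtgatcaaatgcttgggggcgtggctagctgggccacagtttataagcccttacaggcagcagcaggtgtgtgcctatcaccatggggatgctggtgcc
Oas1a (chr5:120907476-120907775, minus strand): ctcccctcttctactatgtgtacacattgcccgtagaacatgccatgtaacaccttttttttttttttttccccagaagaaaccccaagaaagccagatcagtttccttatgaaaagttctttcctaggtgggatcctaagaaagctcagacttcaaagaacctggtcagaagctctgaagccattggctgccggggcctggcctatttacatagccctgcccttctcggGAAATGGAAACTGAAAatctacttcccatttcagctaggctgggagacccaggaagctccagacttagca
Oasl1 (chr5:114922990-114923289, plus strand): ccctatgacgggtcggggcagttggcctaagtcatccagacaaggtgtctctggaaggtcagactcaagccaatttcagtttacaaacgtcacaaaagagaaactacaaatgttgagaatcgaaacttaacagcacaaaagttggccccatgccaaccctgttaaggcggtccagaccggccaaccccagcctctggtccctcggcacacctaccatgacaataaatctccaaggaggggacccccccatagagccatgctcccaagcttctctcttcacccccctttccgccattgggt
Gbp7 (chr3:142530086-142530385, plus strand): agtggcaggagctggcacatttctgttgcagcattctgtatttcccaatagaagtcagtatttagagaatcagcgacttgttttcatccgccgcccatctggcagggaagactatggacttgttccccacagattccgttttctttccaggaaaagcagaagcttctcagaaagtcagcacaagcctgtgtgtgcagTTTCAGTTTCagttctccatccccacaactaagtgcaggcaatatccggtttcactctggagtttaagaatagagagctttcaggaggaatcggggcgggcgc
Igtp (chr11:58199306-58199605, plus strand): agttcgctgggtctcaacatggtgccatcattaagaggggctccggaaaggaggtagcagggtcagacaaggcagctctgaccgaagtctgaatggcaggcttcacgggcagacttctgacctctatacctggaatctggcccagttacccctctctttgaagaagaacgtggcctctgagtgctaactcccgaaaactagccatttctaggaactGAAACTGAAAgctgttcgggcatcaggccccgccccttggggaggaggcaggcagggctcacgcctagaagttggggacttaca
Isg15 (chr4:156200769-156201068, minus strand): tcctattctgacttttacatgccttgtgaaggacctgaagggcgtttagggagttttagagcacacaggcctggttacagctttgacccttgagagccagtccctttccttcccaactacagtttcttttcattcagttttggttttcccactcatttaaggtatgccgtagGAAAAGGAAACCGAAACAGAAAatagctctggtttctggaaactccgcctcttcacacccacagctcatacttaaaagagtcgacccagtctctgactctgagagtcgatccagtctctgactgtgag
Ifit1 (chr19:34640639-34640938, plus strand): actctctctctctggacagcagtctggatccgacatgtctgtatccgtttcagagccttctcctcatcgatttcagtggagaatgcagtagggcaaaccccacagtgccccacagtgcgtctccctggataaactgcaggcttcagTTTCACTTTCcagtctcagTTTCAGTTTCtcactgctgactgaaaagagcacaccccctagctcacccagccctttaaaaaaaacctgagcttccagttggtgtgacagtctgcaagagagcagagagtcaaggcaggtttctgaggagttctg

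Across the whole family, more genes were higher in S100A4-positive libraries than lower. Of the 48 genes 46 had a mean of at least 1 FPKM and were tested; Ifi44 and Ifi47 were below that level in every library. By limma on log2(FPKM + 1), 19 of 46 were higher (41.3%) and 7 were lower (15.2%) at an adjusted p under 0.05, and 20 were not called. Among all 13241 tested genes 19.0% were higher, 43.4% were lower and 62.3% were called in either direction. The family therefore had a larger share of higher calls and a smaller share of lower calls than the table as a whole. The same shares of all tested genes are the ones to set beside the counts of each group below. The median log2 fold change of the 46 genes was 0.39, with a range of -1.63 to 3.63. The median of all tested genes was -0.36, so that the family's median lay 0.75 above it. Each fold change is the S100A4-positive mean of log2(FPKM + 1) less the S100A4-negative mean, a scale on which changes of low genes come out too small.

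Other ways of counting and scaling also gave more higher than lower genes in the family, while the size of the split moved. In 24 of 46 genes every S100A4-positive library was above every S100A4-negative library, against 20.9% of all tested genes. In 8 genes every S100A4-positive library was below, against 49.1% of all tested genes. After median-of-ratios rescaling, 32 of the family's genes were higher and 4 lower, where 27.3% of all tested genes were higher and 24.8% lower. After quantile normalization, 24 were higher and 5 lower, where 22.9% of all tested genes were higher and 31.6% lower. In the authors' deposited table, calls were higher for 20 of these genes and lower for 3, against 19.8% and 13.8% of the same tested genes. The summed level of the 48 genes was 2203, 3103 and 2812 FPKM in S100A4-positive libraries, against 1529, 1743 and 1668 FPKM in S100A4-negative libraries. That sum was 0.344%, 0.468% and 0.422% of all FPKM in the S100A4-positive libraries, against 0.215%, 0.237% and 0.238% in the S100A4-negative libraries.

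**Figure D1:**
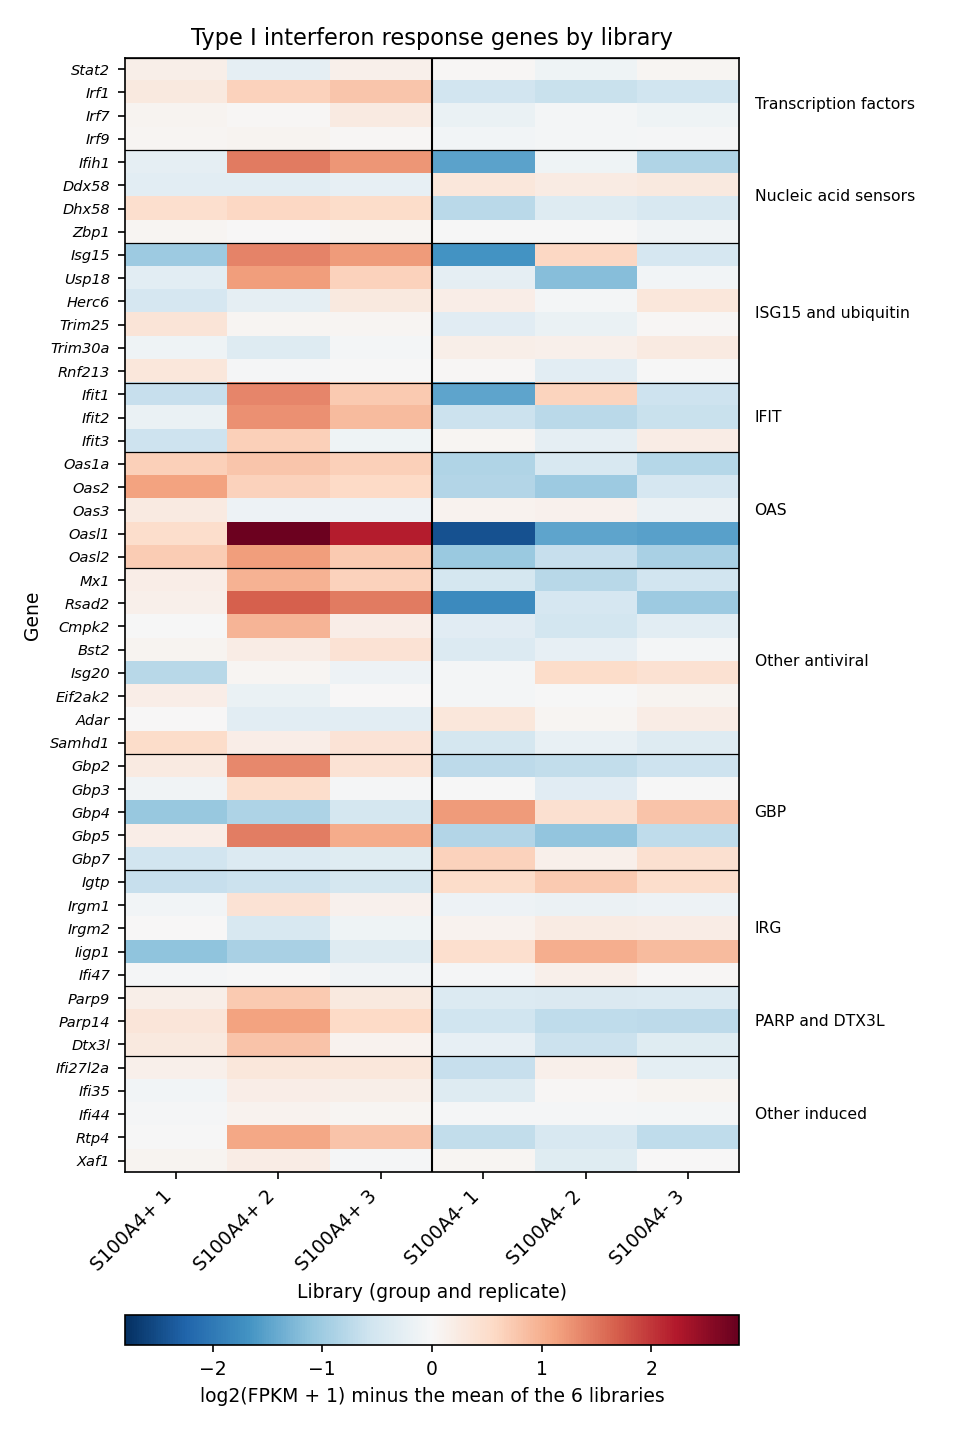
Heat map of the 48 genes by library, grouped by role. Colour gives log2(FPKM + 1) minus the gene's mean over the 6 libraries, red above and blue below it, with the 3 S100A4-positive libraries on the left and the 3 S100A4-negative libraries on the right. Oasl1 spans the widest range, from 386 FPKM in S100A4-positive replicate 2 to 9.58 FPKM in S100A4-negative replicate 1.

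Among the 4 transcription factors, 1 was higher and 3 were not called. Irf1, which activates many interferon targets and is itself induced by interferon gamma, had 269.9, 351 and 384 FPKM in S100A4-positive libraries, against 154, 146 and 152 FPKM in S100A4-negative libraries. All S100A4-positive libraries lay above all S100A4-negative ones, and the log2 fold change was 1.13 with an SE of 0.15 (limma adjusted p = 0.00075). The subunits of ISGF3 differed far less. Stat2 averaged 42.9 ± 6.93 FPKM in S100A4-positive and 41.6 ± 2.81 FPKM in S100A4-negative libraries (SD, n = 3 each), and Irf9 averaged 56.8 ± 1.18 FPKM in S100A4-positive and 52.6 ± 0.548 FPKM in S100A4-negative libraries. Irf7, which amplifies interferon alpha gene transcription, averaged 63.8 ± 5.69 FPKM in S100A4-positive and 53.8 ± 2.24 FPKM in S100A4-negative libraries, with a limma adjusted p of 0.097. These 3 genes were called higher after median-of-ratios rescaling, where Irf7 had a limma adjusted p of 0.00268.

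The cytosolic nucleic acid sensors moved in both directions. Ifih1 encodes MDA5, a sensor of long double-stranded RNA, and had 28.3, 94.2 and 80.7 FPKM in S100A4-positive libraries, against 11.3, 31.2 and 18.5 FPKM in S100A4-negative libraries. The groups overlapped, since S100A4-positive replicate 1 lay below S100A4-negative replicate 2, and the change of 1.63 (SE 0.50) passed the test narrowly (limma adjusted p = 0.0243). That call was lost without filtering and when S100A4-positive replicate 2 or 3 or S100A4-negative replicate 1 or 3 was left out, with adjusted p up to 0.0848. Dhx58, which encodes LGP2, a regulator of the other RNA helicases of this class, had 37.1, 40.3 and 38.1 FPKM in S100A4-positive libraries, against 15.3, 20.5 and 19.1 FPKM in S100A4-negative libraries. Its groups were far apart and its replicates close together (log2 fold change 1.04, SE 0.14, limma adjusted p = 0.000656). Ddx58, which encodes RIG-I, was lower, with 34.6, 34.7 and 36.2 FPKM in S100A4-positive libraries, against 52.9, 49.8 and 52.0 FPKM in S100A4-negative libraries. Its fall of -0.54 was -0.18 relative to the median of all genes, and the call was lost after median-of-ratios rescaling and by voom with the authors' size factors. Zbp1, a sensor of Z-form nucleic acids, was not called, at 30.0 ± 0.485 FPKM in S100A4-positive and 28.2 ± 1.03 FPKM in S100A4-negative libraries (SD, n = 3 each).

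Of the 6 genes of ISG15 conjugation and ubiquitin transfer, limma called none higher and 1 lower, and 5 were not called; at an unadjusted p under 0.05 limma had 1 higher, and voom on the reads called 0 with library totals and 3 with the authors' size factors. Isg15, a ubiquitin-like protein that is attached to other proteins after interferon exposure, had 23.8, 129.5 and 114 FPKM in S100A4-positive libraries, against 14.7, 73.8 and 35.1 FPKM in S100A4-negative libraries. Its highest library stood 5.43-fold above its lowest among S100A4-positive libraries and 5.03-fold among S100A4-negative libraries, so the groups overlapped (log2 fold change 1.05, SE 0.75, limma adjusted p = 0.252). Without S100A4-positive replicate 1 the change was 1.81 with a limma adjusted p of 0.0306. With a replicate block Isg15 was called higher (limma adjusted p = 0.0088). Usp18, which removes ISG15 from proteins and dampens receptor signalling, had 6.87, 20.7 and 14.3 FPKM in S100A4-positive libraries, against 7.12, 3.24 and 8.23 FPKM in S100A4-negative libraries, and was not called (limma adjusted p = 0.0701). The groups of Usp18 overlapped through S100A4-positive replicate 1 alone, and without it the change was 1.41 with a limma adjusted p of 0.0129. Usp18 was also called higher after median-of-ratios rescaling, after quantile normalization, with array weights and by voom with the authors' size factors. Trim30a, a TRIM protein of the interferon response, had 58.1, 49.5 and 61.1 FPKM in S100A4-positive libraries, against 70.9, 69.8 and 76.2 FPKM in S100A4-negative libraries. Its change of -0.36 was close to the median of all genes, and the call was lost in 7 of the 16 alternatives. These were quantile normalization, leaving out S100A4-positive replicate 2 or any 1 S100A4-negative library (limma adjusted p 0.0625 to 0.101), and, with a change of sign, median-of-ratios rescaling and voom with the authors' size factors. Herc6, the main ISG15 ligase of mice, Trim25, a ligase that acts on RIG-I, and Rnf213, a giant ubiquitin ligase, were not called, with changes of -0.30, 0.32 and 0.19. The groups of Trim25 did not overlap, and the authors' table called it higher. Trim25 and Rnf213 were both called higher after median-of-ratios rescaling and by voom with the authors' size factors. Quantile normalization also called Trim25 higher.

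The IFIT genes encode proteins that bind foreign RNA, and 1 of 3 was higher. Ifit2 had 11.4, 33.2 and 25.1 FPKM in S100A4-positive libraries, against 8.21, 7.27 and 8.04 FPKM in S100A4-negative libraries. The S100A4-negative libraries were nearly equal while the S100A4-positive ones spread widely (log2 fold change 1.34, SE 0.34, limma adjusted p = 0.0117). Ifit1 had 8.55, 37.6 and 24.1 FPKM in S100A4-positive libraries, against 4.41, 22.1 and 9.04 FPKM in S100A4-negative libraries, and was not called (limma adjusted p = 0.218), though it was without S100A4-positive replicate 1 (limma adjusted p = 0.0497). Its pattern over the 6 libraries was that of Isg15, with the second replicate highest and the first lowest in both populations. With a replicate block Ifit1 was called higher (limma adjusted p = 0.00386). Ifit3 averaged 13.5 ± 6.52 FPKM in S100A4-positive and 12.8 ± 2.22 FPKM in S100A4-negative libraries (SD, n = 3 each); its closely similar copy Ifit3b could share reads with it.

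Of the 5 oligoadenylate synthetase genes in this set 4 were higher, each in all 16 alternative analyses. Oasl1 had the largest change of the 46 genes tested. These enzymes make the messenger that activates RNase L, which degrades RNA in infected cells. Oasl1, an inactive relative that in mice represses the translation of Irf7, had 80.3, 386 and 263 FPKM in S100A4-positive libraries, against 9.58, 19.7 and 19.1 FPKM in S100A4-negative libraries. All S100A4-positive libraries exceeded the highest S100A4-negative one, and the ratio of the means was 15.1 (log2 fold change 3.63, SE 0.56, limma adjusted p = 0.00131). Oasl1 (ENSMUSG00000041827) lies at chr5:114923240-114937915 on the plus strand, next to Oasl2 (ENSMUSG00000029561) at chr5:114896936-114912234 on the same strand. Oasl2, an active synthetase in mice, had 40.9, 56.5 and 41.6 FPKM in S100A4-positive libraries, against 11.4, 15.3 and 12.8 FPKM in S100A4-negative libraries (log2 fold change 1.73, SE 0.17). Oas2 had 16.9, 11.7 and 11.1 FPKM in S100A4-positive libraries, against 3.61, 3.02 and 4.90 FPKM in S100A4-negative libraries (log2 fold change 1.55, SE 0.21). Oas2 was highest in S100A4-positive replicate 1, unlike Oasl1 and Oasl2. Oas1a averaged 28.2 ± 1.19 FPKM in S100A4-positive and 10.1 ± 1.75 FPKM in S100A4-negative libraries (SD, n = 3 each; log2 fold change 1.41, limma adjusted p = 0.000233). Reads of Oas1a and of its near copies, such as Oas1g, could be split by the counting. Relatives outside the set went both ways. Oas1g was higher (log2 fold change 2.52), while Oas1b and Oas1c were lower (-0.81 and -1.22, limma adjusted p 0.00842 and 0.00219). Oas3 was not called, at 16.0 ± 2.81 FPKM in S100A4-positive and 16.1 ± 1.82 FPKM in S100A4-negative libraries, in the same chromosomal cluster as Oas1a and Oas2.

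Among 8 other antiviral genes, 5 were higher, 1 was lower and 2 were not called. Rsad2 encodes viperin, an enzyme that makes a chain-terminating nucleotide, and had 24.3, 71.9 and 61.4 FPKM in S100A4-positive libraries, against 5.64, 15.3 and 10.3 FPKM in S100A4-negative libraries. The groups did not overlap, and the change of 2.19 (SE 0.46, limma adjusted p = 0.00506) came next after that of Oasl1 among the tested genes of the family. Cmpk2, a nucleotide kinase gene that lies beside Rsad2 on chromosome 12, had 12.4, 25.3 and 14.5 FPKM in S100A4-positive libraries, against 9.80, 8.42 and 10.1 FPKM in S100A4-negative libraries. Its change of 0.76 (limma adjusted p = 0.0308) lost the call without filtering (limma adjusted p = 0.0663) and when any 1 S100A4-negative library was left out (limma adjusted p 0.0613 to 0.0888). Mx1, a dynamin-like GTPase whose allele in C57BL/6 mice makes no functional protein, had 34.7, 61.4 and 48.6 FPKM in S100A4-positive libraries, against 21.4, 17.3 and 20.97 FPKM in S100A4-negative libraries (log2 fold change 1.2, SE 0.21). Samhd1, which depletes deoxynucleotides, was one of the most abundant members, with 309 ± 35.3 FPKM in S100A4-positive and 187 ± 18.5 FPKM in S100A4-negative libraries (SD, n = 3 each; log2 fold change 0.72). Bst2, the tetherin that holds budding virus at the cell surface, averaged 99.1 ± 11.2 FPKM in S100A4-positive and 71.8 ± 8.55 FPKM in S100A4-negative libraries. Its call was lost when S100A4-positive replicate 3 or S100A4-negative replicate 1 or 2 was left out (limma adjusted p 0.0597 to 0.0777).

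Adar, which edits double-stranded RNA, was the lower gene of this group, with 48.9, 39.5 and 39.7 FPKM in S100A4-positive libraries, against 60.9, 50.4 and 56.0 FPKM in S100A4-negative libraries. Its change of -0.38 was -0.02 relative to the median of all genes, and its call was lost in 9 of the 16 alternatives, 4 of which left out S100A4-positive replicate 2 or 3 or S100A4-negative replicate 1 or 3. Chrnb2 on the other strand overlaps 16.8% of its exon bases. Isg20, a nuclease, had 11.3, 20.8 and 18.3 FPKM in S100A4-positive libraries, against 19.2, 29.1 and 27.4 FPKM in S100A4-negative libraries, and was not called (limma adjusted p = 0.0761). It was called lower when S100A4-negative replicate 1 was left out (limma adjusted p = 0.0428) and under array weights (limma adjusted p = 0.0473). Eif2ak2, which encodes the RNA-activated kinase PKR, was not called, at 21.7 ± 3.005 FPKM in S100A4-positive and 21.6 ± 1.05 FPKM in S100A4-negative libraries (SD, n = 3 each).

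The guanylate-binding proteins, GTPases that act against intracellular bacteria and parasites, moved in opposite directions. Of the 5 genes in this set 2 were higher (40.0%), 2 were lower (40.0%) and 1 was not called. These 4 calls kept their direction in all 16 alternatives. The shares of all tested genes were 19.0% higher and 43.4% lower. Gbp5 had 23.7, 57.6 and 43.4 FPKM in S100A4-positive libraries, against 11.3, 9.14 and 12.3 FPKM in S100A4-negative libraries (log2 fold change 1.76, SE 0.30, limma adjusted p = 0.00208). Gbp2 had 54.8, 117 and 60.3 FPKM in S100A4-positive libraries, against 27.1, 28.1 and 30.1 FPKM in S100A4-negative libraries (log2 fold change 1.33, SE 0.27). Gbp4 went the other way, with 13.1, 15.2 and 19.8 FPKM in S100A4-positive libraries, against 66.6, 39.2 and 50.2 FPKM in S100A4-negative libraries. Its change of -1.63 (SE 0.22, limma adjusted p = 0.000822) was the largest fall among the 46 interferon response genes tested, on the log2(FPKM + 1) scale. Iigp1, a gene of low level, had a lower ratio of means (0.224, against 0.308 for Gbp4). Gbp7 had 5.21, 5.96 and 6.17 FPKM in S100A4-positive libraries, against 13.2, 9.02 and 11.4 FPKM in S100A4-negative libraries (log2 fold change -0.84, SE 0.17). Gbp2, Gbp5 and Gbp7 lie on chromosome 3, in the cluster that also holds Gbp3, while Gbp4 (ENSMUSG00000079363) lies at chr5:105115767-105139586 on the minus strand. Gbp3 averaged 51.3 ± 12.4 FPKM in S100A4-positive and 42.9 ± 5.15 FPKM in S100A4-negative libraries (SD, n = 3 each). Of the relatives outside the set on chromosome 5, Gbp6, Gbp8 and Gbp10 were lower, with changes of -0.82, -1.08 and -1.15. Gbp9 was not called (-0.39), and Gbp11 was not tested. Gbp6 and Gbp10 share 28.99% and 46.27% of their exon bases with another annotated gene. The members of this family resemble each other in sequence, and how shared reads were counted is not given in the sources used here.

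Of the immunity-related GTPases, which in mice attack the vacuoles of intracellular parasites, limma called none of 4 tested higher, 2 lower and 2 in neither direction. None was higher at an unadjusted p under 0.05 either, and voom called 0 higher with library totals and 1 with the authors' size factors. Iigp1 had 0.821, 1.11 and 2.08 FPKM in S100A4-positive libraries, against 4.50, 7.04 and 6.31 FPKM in S100A4-negative libraries. The groups did not overlap, on 32 to 83 reads in S100A4-positive and 176 to 288 reads in S100A4-negative libraries (log2 fold change -1.59, SE 0.25, limma adjusted p = 0.00137). Igtp had 11.6, 11.8 and 12.9 FPKM in S100A4-positive libraries, against 26.9, 31.3 and 26.6 FPKM in S100A4-negative libraries, with close replicates in both (log2 fold change -1.16, SE 0.12, limma adjusted p = 0.000264). Igtp (chr11:58199556-58207591) shares 8.01% of its exon bases with Irgm2 (chr11:58199618-58222782), whose annotated span overlaps it on the same strand. Irgm2 and Irgm1, regulatory members of the family, had changes of -0.36 and 0.30 and were not called. Ifi47 had at most 4 reads in a library and was not tested.

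Parp9, Parp14 and Dtx3l were all higher, and each was so in all 16 alternatives. PARP9 and DTX3L form a complex that joins ADP-ribosylation to ubiquitin transfer, and PARP14 adds single ADP-ribose units. Parp14 had 72.6, 126 and 84.0 FPKM in S100A4-positive libraries, against 38.2, 34.5 and 33.9 FPKM in S100A4-negative libraries (log2 fold change 1.34, SE 0.20, limma adjusted p = 0.00119). Parp9 had 41.1, 61.6 and 44.6 FPKM in S100A4-positive libraries, against 28.1, 27.5 and 28.0 FPKM in S100A4-negative libraries (log2 fold change 0.77, SE 0.16). Dtx3l had 26.9, 39.2 and 23.9 FPKM in S100A4-positive libraries, against 18.7, 14.3 and 17.2 FPKM in S100A4-negative libraries (log2 fold change 0.78, SE 0.20). All 3 peaked in S100A4-positive replicate 2. Parp9 and Dtx3l lie head to head on chromosome 16 and share 9.4% and 8% of their exon bases on opposite strands, so part of their reads may be common to both.

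The last group comprised 5 induced genes of other kinds, 4 of them tested, with 1 higher and 3 not called. Rtp4, a receptor chaperone, had 21.6, 46.8 and 38.1 FPKM in S100A4-positive libraries, against 13.03, 15.6 and 12.7 FPKM in S100A4-negative libraries (log2 fold change 1.24, SE 0.27, limma adjusted p = 0.00554). Ifi27l2a was abundant in both populations, at 296 ± 21.3 FPKM in S100A4-positive and 211 ± 56.6 FPKM in S100A4-negative libraries (SD, n = 3 each), and just missed the threshold (limma adjusted p = 0.0524). It was called higher in 6 of the 16 alternatives, among them leaving out S100A4-negative replicate 2 and both voom fits (limma adjusted p 0.00784 to 0.0443). Ifi35 and Xaf1, a pro-apoptotic factor, had changes of 0.18 and 0.17 and were not called. Ifi44 had 25 to 30 reads in every library and was not tested. The genes Rtp4, Herc6, Ifi35 and Gbp7 share 13.9%, 13.7%, 16.8% and 11.35% of their exon bases with other genes, as does Adar.

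**Figure D2:**
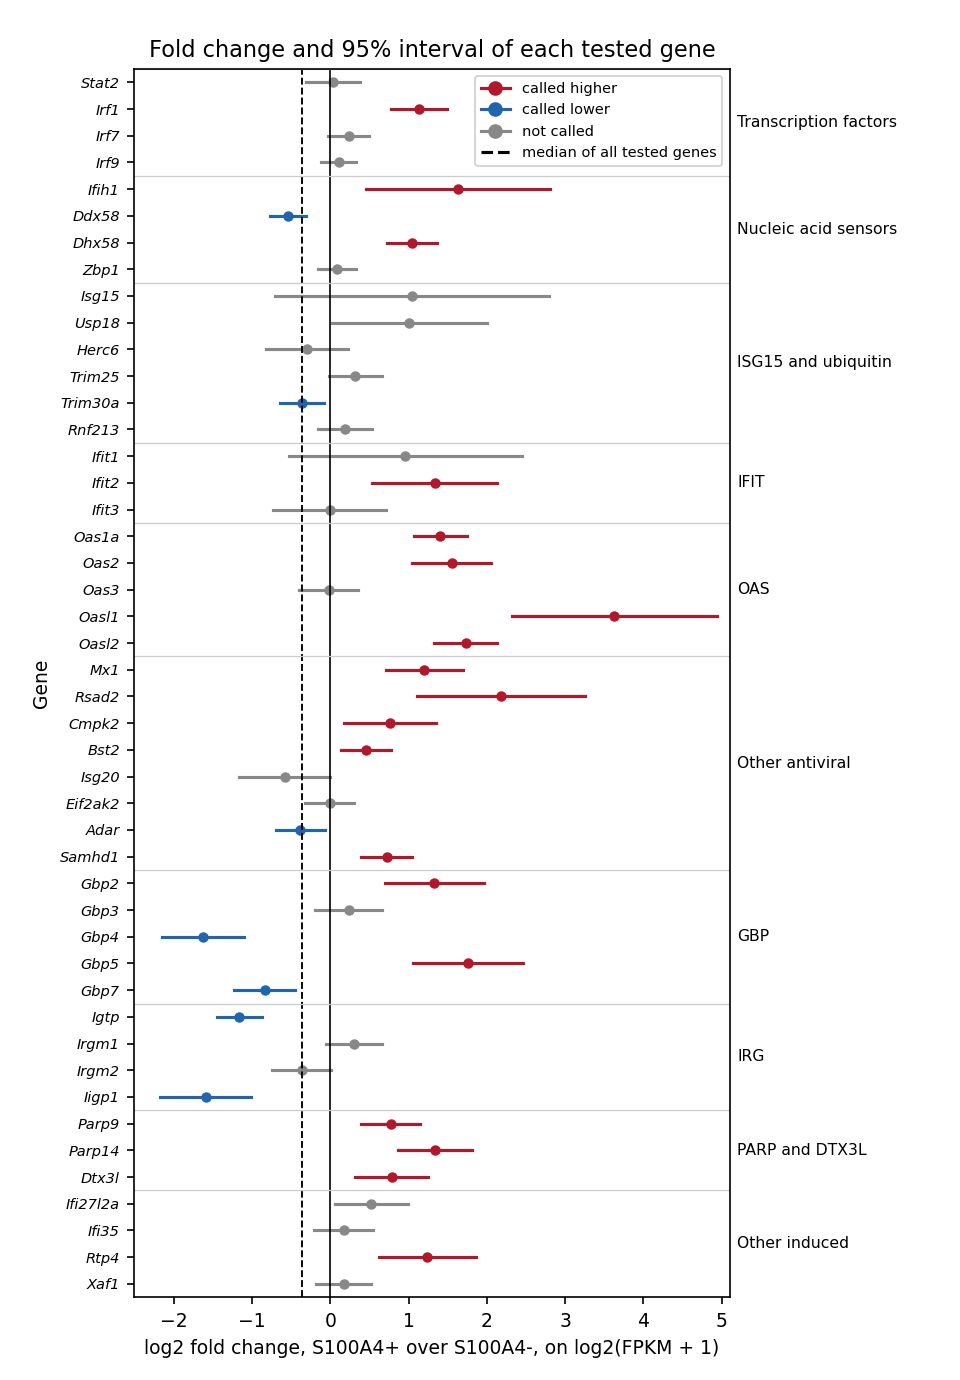
Log2 fold change, S100A4-positive over S100A4-negative, of the 46 tested genes on the log2(FPKM + 1) scale. Points are limma estimates, bars are 95% intervals, red marks the 19 genes called higher, blue the 7 called lower and grey the rest, and the dashed line is the median of all tested genes at -0.36.

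The changes in the family were joined by an uneven spread among the S100A4-positive libraries. Replicate 1 was the lowest of the 3 S100A4-positive libraries for 31 of 46 genes (67.4%), against 32.1% of all tested genes. Replicate 2 was the highest for 26 of 46 (56.5%), against 21.5% of all tested genes. The SD of log2(FPKM + 1) exceeded 0.5 for 12 genes (26.1%) among the S100A4-positive libraries, against 9.96% of all tested genes, and in all 12 replicate 1 was lowest and replicate 2 highest. Among the S100A4-negative libraries the SD exceeded 0.5 for 6 genes (13%), against 8.19% of all tested genes, and replicate 1 was lowest in 5 of them and replicate 2 highest in 5. The order of the libraries was not counted over all tested genes with an SD above 0.5. It is therefore not shown to be particular to the family. Without S100A4-positive replicate 1, 22 genes were higher and 7 lower. What differed between these libraries was not tested.

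**Figure D3:**
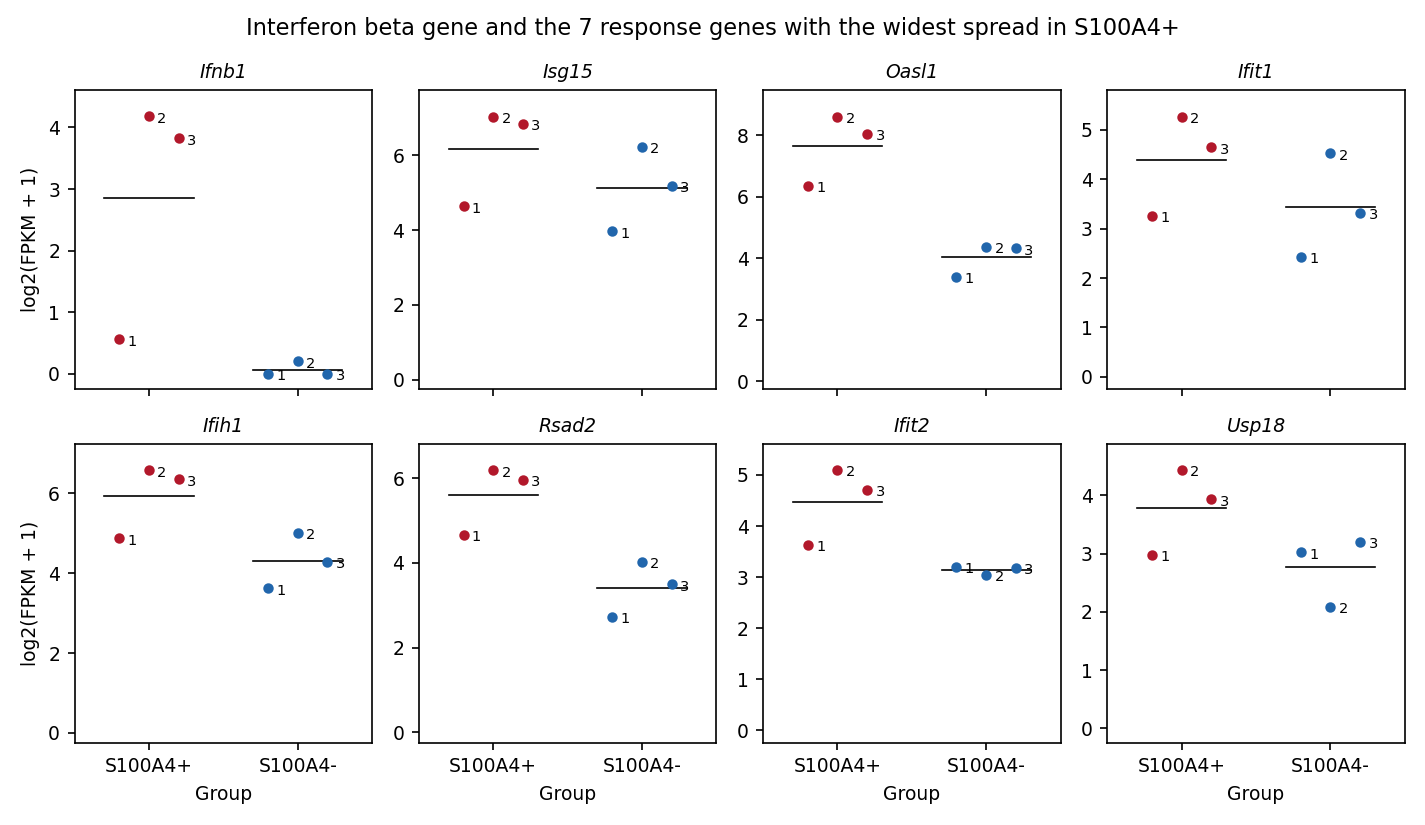
Levels of Ifnb1 and of the 7 response genes with the widest spread in S100A4-positive libraries, as log2(FPKM + 1) by library. Points are libraries numbered by replicate, red for S100A4-positive and blue for S100A4-negative, and horizontal lines are group means. In all 8 panels S100A4-positive replicate 1 is the lowest of its group and replicate 2 the highest.

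The ligand gene that moved with these libraries was Ifnb1, which encodes interferon beta. It had 0.472, 17.1 and 13.1 FPKM in S100A4-positive libraries, from 6, 192 and 171 reads, against 0, 0.150 and 0 FPKM in S100A4-negative libraries, from 0, 2 and 0 reads. S100A4-positive replicate 1 was thus near the S100A4-negative level and the other two were far above it. With a fitted difference of 2.79 (SE 0.86) Ifnb1 was called higher by limma (adjusted p = 0.0248), but its size depends on the pseudocount, and the call was lost in 8 of the 16 alternatives, with adjusted p up to 0.109. Without S100A4-positive replicate 1 the adjusted p by limma was 5.75e-05, and without S100A4-positive replicate 2 it was 0.0836. Of 21 interferon genes looked up, 10 were listed at 0 in all libraries, and no interferon alpha gene had more than the 6 reads of Ifna2 in S100A4-positive replicate 2. Ifng, the gene for interferon gamma, was lower, with 0.670, 1.18 and 2.83 FPKM in S100A4-positive libraries, against 8.17, 6.81 and 4.39 FPKM in S100A4-negative libraries (log2 fold change -1.60, limma adjusted p = 0.00523). Of the exon bases of Ifng, 25.95% are shared with another annotated gene.

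The receptors and kinases of the pathway were mixed, with 3 of 9 tested genes higher (33.3%), 2 lower (22.2%) and 4 not called. The shares of all tested genes were 19.0% higher and 43.4% lower. Ifnar2, the signalling chain of the type I receptor, had 98.6, 75.4 and 75.4 FPKM in S100A4-positive libraries, against 35.6, 39.1 and 37.3 FPKM in S100A4-negative libraries (log2 fold change 1.12, limma adjusted p = 0.000487). Ifnar1, the other chain of that receptor, was not called and averaged 166 ± 32.6 FPKM in S100A4-positive and 165 ± 13.01 FPKM in S100A4-negative libraries (SD, n = 3 each). Ifngr2 and Il10rb, the second chains of the receptors for interferon gamma and for interleukin 10 and interferon lambda, had changes of 1.72 and 1.14. Ifngr1, the other chain of the interferon gamma receptor, was lower (log2 fold change -0.55, limma adjusted p = 0.0135). It averaged 407 ± 33.9 FPKM in S100A4-positive and 599 ± 74.2 FPKM in S100A4-negative libraries. Its change was -0.19 relative to the median of all genes. Jak1, the kinase shared by these receptors, had 408, 410.0 and 379.5 FPKM in S100A4-positive libraries, against 817, 616 and 680.4 FPKM in S100A4-negative libraries (log2 fold change -0.81, limma adjusted p = 0.00271). The call of Jak1 was lost after median-of-ratios rescaling (limma adjusted p = 0.055).

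Of 12 feedback inhibitors 4 were higher (33.3%) and 4 lower (33.3%), against 19.0% higher and 43.4% lower among all tested genes. Socs3, an inhibitor of cytokine receptor signalling, had 290.3, 714 and 599 FPKM in S100A4-positive libraries, against 173, 232 and 156 FPKM in S100A4-negative libraries (log2 fold change 1.43). Like the interferon response genes with wide spread, it was lowest in S100A4-positive replicate 1 and highest in replicate 2. Socs2, another member of that family, had a change of 1.58, Ptpn1, a phosphatase of JAK kinases, one of 1.31, and Cish, an inhibitor of STAT5 signalling, one of -1.25. These 4 kept their calls in all 16 alternatives.

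Genes that sense nucleic acids and switch on interferon genes were higher in 13 of 21 cases (61.9%) and lower in 2 (9.52%). Among all tested genes 19.0% were higher and 43.4% lower. Ifi204, a DNA-binding protein of myeloid cells, had 69.6, 96.9 and 70.3 FPKM in S100A4-positive libraries, against 1.4, 3.47 and 1.98 FPKM in S100A4-negative libraries (log2 fold change 4.64). Tlr7 and Tlr8, endosomal receptors for single-stranded RNA, had changes of 3.08 and 4.31, and Irf5, a transcription factor downstream of them, one of 2.64. Tlr7 had 93.5, 67.5 and 74.4 FPKM in S100A4-positive libraries, against 6.43, 7.45 and 11.8 FPKM in S100A4-negative libraries, without the low value in replicate 1 that Ifnb1 and Isg15 had. Trex1, a nuclease gene, was listed at 0 in every library, and all of its exon bases are shared with Atrip.

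A wider list of interferon-induced genes had shares of calls nearer to those of all genes. Of 66 tested genes outside the family 19 were higher (28.8%) and 32 lower (48.5%), against 19.0% and 43.4% of all tested genes. Their median log2 fold change was -0.41, against -0.36 for all tested genes. Among the genes of that list with large changes was Ifitm3, with 506, 537 and 460.2 FPKM in S100A4-positive libraries, against 22.9, 27.1 and 16.3 FPKM in S100A4-negative libraries. Ifi205, Ifitm2, Ifi211 and Oas1g had log2 fold changes of 3.84, 2.65, 2.53 and 2.52. That scale shrinks genes of low level: the ratio of the means was 19.0 for Oas1g, against 6.82 for Ifitm2 and 7.70 for Ifi211. IFITM3 blocks the entry of viruses through endosomes. The genes named so far from that list all rose, though more of its genes were lower than higher. Among the lower ones, Ifit1bl1, Slfn1, Mndal and Ifi213 had changes of -1.75, -1.60, -1.39 and -1.36. After median-of-ratios rescaling 21 of the 66 were lower, where 24.8% of all tested genes were lower. Of 9 targets of interferon gamma 4 were higher and none lower (1 at an unadjusted limma p under 0.05, 0 by voom), led by Cxcl9, a chemokine for activated T cells, with 7.24, 29.8 and 24.4 FPKM in S100A4-positive libraries, against 0.434, 1.07 and 3.22 FPKM in S100A4-negative libraries. The chemokine gene was thus higher in the population where Ifng was lower. Ciita, Tapbp and Psmb10, genes of antigen presentation, had changes of 0.76, 0.65 and 0.58, and the call of Ciita was lost in 6 of the 16 alternatives, with adjusted p up to 0.13.

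**Figure D4:**
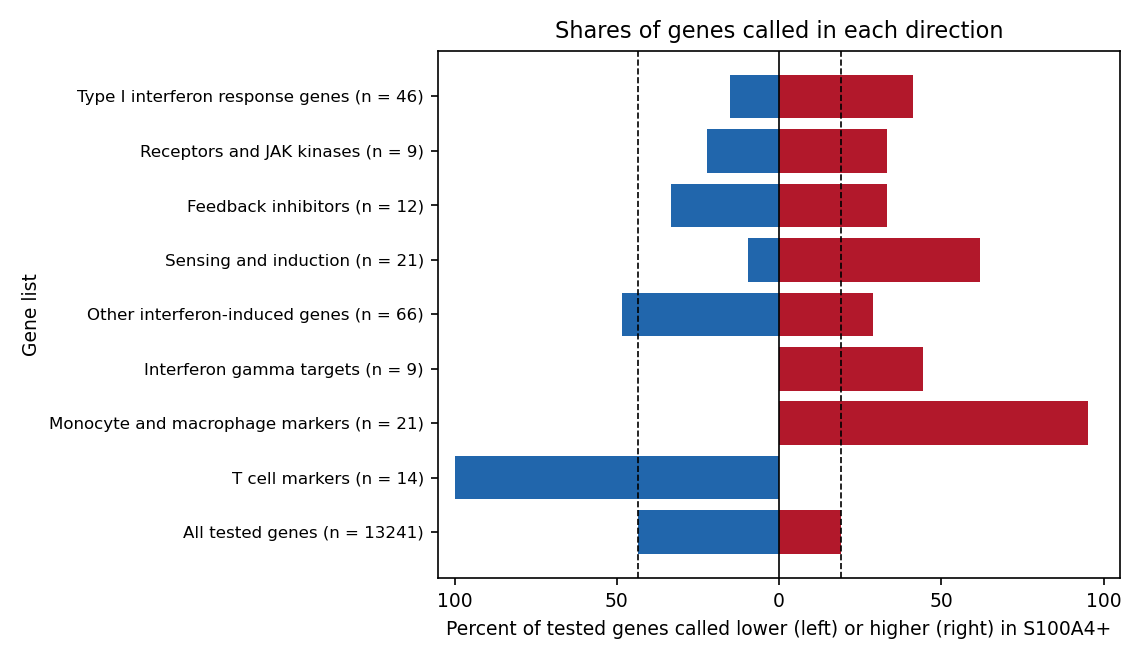
Percent of tested genes called higher (right, red) or lower (left, blue) in S100A4-positive libraries for the interferon lists, for 2 cell type lists and for all tested genes; dashed lines continue the shares of all tested genes. The 46 type I interferon response genes had 41.3% higher and 15.2% lower, while all 13241 tested genes had 19.0% higher and 43.4% lower.

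Markers of other cells moved with the groups as well. All 7 tested dendritic cell markers were higher, with a summed level of 354.8 to 509 FPKM in S100A4-positive libraries, against 44.1 to 68.3 FPKM in S100A4-negative libraries. Of 10 tested genes listed for plasmacytoid dendritic cells, the main makers of interferon alpha, 2 were higher, 3 lower and 5 not called. The 2 higher genes were Lair1 and Clec10a. The 10 genes had a summed level of 228.5 to 254.0 FPKM in S100A4-positive libraries, against 230.7 to 395.5 FPKM in S100A4-negative libraries. Lists for B cells, plasma cells, neutrophils and NK cells were lower in 8 of 11, 7 of 8, 10 of 11 and 7 of 7 tested genes, with 1 higher. Among all tested genes 19.0% were higher and 43.4% were lower. B cell markers summed to 1604 to 1621 FPKM in S100A4-positive and 7210 to 12650 FPKM in S100A4-negative libraries. Neutrophil markers summed to 416 to 1725 FPKM in S100A4-positive and 3300 to 4886 FPKM in S100A4-negative libraries. In the S100A4-negative libraries the T cell markers summed to 2762 to 3319 FPKM. None of 5 tested erythroid genes was called by limma, also not at an unadjusted p under 0.05 or by voom. None of these lists had a gene at 0 in all libraries. Their part in the levels of the interferon response genes was not tested.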

How the data were processed

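RNA-seq of 6 libraries (2 groups of 3) was analysed from the deposited tables, not from reads. Per the submitters' processing notes, HISAT2 2.1.0, Cufflinks, Cuffnorm and the mouse build mm10 were used, with no roles given. FPKM per gene and library stand in the deposited expression table. Per the file headers, the authors' deposited comparison table holds a normalized read count per group (their mean, a signal), a log2 fold change, a p-value with its adjusted form and a call, with no test named. The counter and its treatment of strand and shared reads are not given in the sources used here.

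Combining the deposited FPKM with the means in the comparison table gave back the reads, and all 135018 values above 0 came out whole within 0.02 of a read. Depths were 14925260 to 18660188 reads. The 13241 genes that averaged 1 FPKM or more were tested on log2(FPKM + 1) with limma 3.58.1 (R 4.3.3), using a trend in the prior variance and Benjamini-Hochberg adjustment over all of them; an adjusted p under 0.05 is a call. The 16 alternatives were a pseudocount of 0.1, no filter, a filter of 5 FPKM, quantile normalization, median-of-ratios rescaling, array weights, limma without trend, a replicate block, voom on the reads scaled by totals or by the size factors of the authors, and each library left out in turn. The steps were tested on simulated data. No set test was run.

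The genes of the family, the further lists and the cell type markers were chosen with earlier results of these data known. Genes given with values of all libraries were chosen by rule: per role up to 3 called genes with the largest change in each direction, or the 2 with the smallest p where none was called, and in each further list up to 4 called genes with the largest change. The values of Isg15, Ifit1, Usp18, Isg20, Oas1b, Oas1c and Oas1g were added after they were seen. So were those of Ifit1bl1, Slfn1, Mndal, Ifi213, Gbp6, Gbp8, Gbp9, Gbp10 and Ifngr1. Coordinates and exon overlaps come from GENCODE M21 (build GRCm38, which mm10 also denotes), in which all 48 genes were found, and promoter windows from RefSeq. Same-numbered samples of the 2 groups did not deviate together in every pair, which does not exclude pairing. The main test did not pair the samples, and a replicate block was among the alternatives. Tables and figures were made with pandas 2.3.3 and matplotlib 3.10.9 in Python 3.11.15.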

Additional observations from a re-analysis of the deposited data

How the results depend on the processing

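Of the 26 called genes, 20 kept their call in every alternative that tested them, 16 higher and 4 lower (Gbp4, Gbp7, Igtp and Iigp1); a filter of 5 FPKM left Iigp1 untested. Leaving out each library in turn gave 16 to 22 higher and 5 to 7 lower genes in the family, and 2183 to 2473 higher and 4537 to 5699 lower among all genes. The family's median then ran from 0.32 to 0.47, and from 0.67 to 0.85 relative to the median of all genes. Scaling moved the counts most. Median-of-ratios rescaling and voom with the authors' size factors each gave 32 higher and 4 lower genes in the family, with 3286 and 3156 lower among all genes and family medians of 0.76 and 0.78. Not called in the main test but higher in both were Stat2, Irf7, Irf9, Zbp1, Usp18, Trim25, Rnf213, Eif2ak2, Gbp3, Irgm1, Ifi27l2a, Ifi35 and Xaf1. Without a filter the family's median lay 0.37 above that of all genes.

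Stat2, Herc6, Trim30a, Ifit3, Oas3 and Eif2ak2, with changes from -0.36 to 0.03, changed sign in some alternatives, and of these Trim30a had been called lower; the cause was not tested. Under median-of-ratios rescaling and voom with the authors' size factors, Herc6 changed to 0.033 and 0.046, Trim30a to 0.010 and 0.020, Ifit3 to 0.34 in both, Oas3 to 0.34 and 0.37, and Eif2ak2 to 0.36 and 0.39 with limma adjusted p of 0.0328 and 0.0318. Quantile normalization gave 0.26 for Ifit3, 0.25 for Oas3 and 0.22 for Eif2ak2. Over the libraries left out in turn, Stat2 ran from -0.042 to 0.17, Ifit3 from -0.35 to 0.28, Oas3 from -0.15 to 0.052 and Eif2ak2 from -0.099 to 0.093.

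Whether the numbers of the replicates pair the samples was not settled. Same-numbered samples had correlations of their deviations of 0.38, 0.08 and 0.37. S100A4-positive replicates 1 and 3 correlated best with the S100A4-negative sample of the same number. S100A4-positive replicate 2 correlated best with S100A4-negative replicate 3 (0.15). With 3 samples a group these correlations cannot decide the question, and calls that differ with the replicate block depend on it. With the replicate block 22 genes of the family were higher and 8 lower, and 2669 and 6188 of all genes; Isg15, Ifit1 and Ifi27l2a were then called higher and Isg20 lower, with limma adjusted p of 0.00875, 0.00386, 0.0226 and 0.00617. With 3 libraries a group and as few as 32 reads for a tested gene of the family, small changes could be missed.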
